A study of Mus musculus with 12 samples.

Results

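The metabotropic glutamate receptors examined were the 6 genes Grm2, Grm3, Grm4, Grm5, Grm7 and Grm8. Their members were all probes that the platform annotation assigns to one of these symbols, 12 of the 45281 probes on the array, for 5 of the 6 genes. Over the whole array, probes with 1 gene name cover 19057 genes. A probe was kept for testing where it was detected above the negative controls, at a detection p under 0.05, on at least 6 of 12 arrays. This left 8 receptor probes for Grm4, Grm5, Grm7 and Grm8 among 20172 kept probes, and each of the 8 was detected on 12 of 12 arrays. Grm2 had no probe of that name and was not analysed here.

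Hippocampal RNA of C57BL/6J female mice aged 12 weeks was hybridised to 1-colour bead arrays, 1 per sample. The labels assign 6 arrays to EtOH, the group of prenatal alcohol exposure, and 6 to Control. In the labels, ethanol at 10% (v/v) was offered to the dams from 0.5 to 8.5 days after mating and drunk by choice, and the labels of the Control samples carry the same treatment text. No litter is named, so the p-values treat each array as independent and measure only the spread between arrays. Chip 1 carried 4 EtOH and 2 Control arrays, and chip 2 carried 2 and 4. Whole hippocampus mixes many cell types, so fewer cells of a type and less RNA per cell cannot be told apart. Median raw intensity per array was 126 to 146.9, and 19748 to 20858 probes were detected per array. On 4 arrays (EtOH 2, EtOH 4, Control 2 and Control 4) Ttr, the main choroid plexus transcript, was at 15.39 to 15.47, against 7.92 to 11.57 on the other 8, and results that change without these arrays are given both ways.

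Metabotropic glutamate receptors are G protein-coupled receptors that tune synapses more slowly than the glutamate-gated ion channels. Group I receptors, among them the product of Grm5, sit mostly beside the postsynaptic density and act through Gq, phospholipase C and calcium release. Group II (Grm2, Grm3) and group III (Grm4, Grm7, Grm8) act through Gi/o proteins, lower cyclic AMP and, in group III, mostly restrain glutamate or GABA release from terminals. In the hippocampus the Grm5 product takes part in long-term depression and local protein synthesis, and the Grm7 product lies in the active zones of terminals.

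Levels below are log2 intensities after background correction and quantile normalization, given as lowest, median and highest array of each group. Differences are EtOH minus Control in limma, adjusted for the chip, with 95% intervals. Levels of different probes are not set against each other, because probes differ in brightness for equal RNA.

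Grm5 encodes the main group I receptor of hippocampal principal neurons and was represented by 3 detected probes. For the brightest, ILMN_1242601, the EtOH arrays ran from 10.24 over a median of 10.42 to 10.67, and the Control arrays from 9.96 over 10.23 to 10.36. The group means were 10.45 ± 0.19 and 10.21 ± 0.14 (SD, n = 6 each). All 6 EtOH arrays exceeded the median of Control, but the groups overlapped, with EtOH 3 the highest array and Control 2 the lowest. The difference was 0.24 (0.02 to 0.47), a fold of 1.18, with an unadjusted limma p of 0.0350 and an adjusted p of 1.00. An exact two-sided permutation of the group labels within chips gave p = 0.0622, where the smallest p it allows is 0.00444. Chip 1 alone gave 0.36 and chip 2 alone 0.13, and leaving out Control 2 gave 0.16.

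The other Grm5 probes did not show the same values. ILMN_1248753 ran from 8.08 over 8.21 to 8.37 in EtOH and from 7.94 over 8.25 to 8.54 in Control, so that the EtOH arrays lay inside the Control range. Its difference was -0.12 (-0.34 to 0.09, exact permutation p = 0.284), and 2 of 6 EtOH arrays exceeded the median of Control. ILMN_1226905, the faintest, had raw intensities of only 137.5 to 185.2 and ran from 5.72 over 5.78 to 6.07 in EtOH and from 5.46 over 5.77 to 6.01 in Control. Its difference was -0.03 (-0.21 to 0.16, exact permutation p = 0.778), with opposite signs within the chips (-0.13 and 0.08). This faint probe differed more between chips than between groups, by -0.23 for chip 2 minus chip 1 (-0.42 to -0.05), with an adjusted limma p of 0.191 for the chip.

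**Figure D1:**
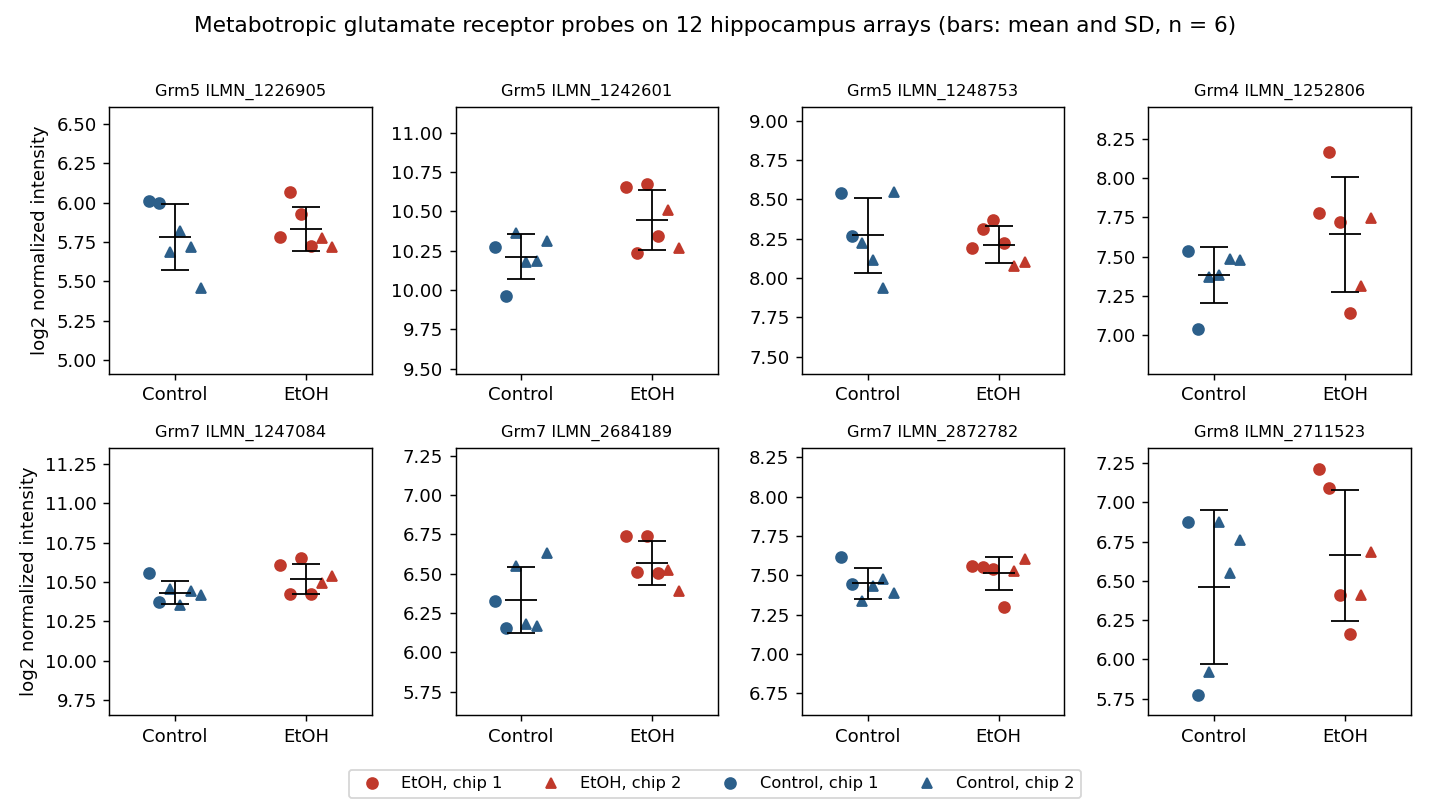
Log2 normalized intensity of the 8 detected receptor probes on each array, by group (colour) and chip (circles for chip 1, triangles for chip 2), with bars for the mean and SD (n = 6). The vertical axes span equal widths but differ in level. EtOH and Control overlap in every panel, and Grm4 and Grm8 spread the most.

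Among the group III genes, Grm7 encodes the receptor with the lowest glutamate affinity of the family and had 3 detected probes. The brightest, ILMN_1247084, ran from 10.42 over 10.51 to 10.65 in EtOH and from 10.35 over 10.43 to 10.55 in Control. This probe varied little, with a 1.23-fold range over all 12 arrays. Its SD was larger than that of only 11.9% of the kept probes. For the other Grm7 probes this share was 16.9% (ILMN_2872782) and 66.4% (ILMN_2684189), so not every Grm7 probe was steady. The difference for ILMN_1247084 was 0.08 (-0.06 to 0.22, exact permutation p = 0.178), and 4 of 6 EtOH arrays exceeded the median of Control. EtOH 3 was the highest array and Control 4 the lowest, as the groups overlapped.

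Probe ILMN_2684189 of Grm7 ran from 6.39 over 6.52 to 6.74 in EtOH and from 6.16 over 6.25 to 6.64 in Control. All 6 EtOH arrays exceeded the Control median, while 2 Control arrays reached into the EtOH range. The difference was 0.23 (-0.01 to 0.46), with an unadjusted limma p of 0.0552, an adjusted p of 1.00 and an exact permutation p of 0.08. It was 0.38 within chip 1, 0.07 within chip 2, 0.10 with no background correction, 0.16 without Control 2 and 0.15 without the 4 arrays high in Ttr. Raw intensities of this probe were only 162.7 to 228.5. Probe ILMN_2872782 of Grm7 ran from 7.30 over 7.55 to 7.60 in EtOH and from 7.34 over 7.44 to 7.62 in Control, so that each group held arrays at both ends. Its difference was 0.06 (-0.10 to 0.21, exact permutation p = 0.422).

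Grm4, a group III presynaptic receptor gene best known from cerebellar granule cells, had 1 detected probe, ILMN_1252806. It ran from 7.14 over 7.73 to 8.17 in EtOH and from 7.04 over 7.43 to 7.54 in Control. EtOH 2 was the highest array, and 4 of 6 EtOH arrays lay above every Control array. EtOH 4 and EtOH 5 lay below every Control array but Control 2. The group means were 7.64 ± 0.37 and 7.38 ± 0.18 (SD, n = 6 each), and the 12 arrays spanned 2.18-fold. The difference was 0.25 (-0.10 to 0.61, exact permutation p = 0.213), with 0.41 in chip 1 and 0.10 in chip 2. Leaving out Control 2 gave 0.12.

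Grm8, the third group III gene and a presynaptic receptor of excitatory and inhibitory terminals, was the most variable member. Its probe ILMN_2711523 ran from 6.16 over 6.55 to 7.21 in EtOH and from 5.78 over 6.66 to 6.87 in Control, a 2.71-fold range over the 12 arrays. Its SD exceeded that of 98.5% of the kept probes, but the probe was faint, with raw intensities of only 149.4 to 272.2. The highest arrays, EtOH 1 and EtOH 2, and the lowest, Control 2, were all on chip 1. The difference of 0.21 (-0.34 to 0.76, exact permutation p = 0.498) was smaller than the SD within either group, 0.42 in EtOH and 0.49 in Control. Chip 1 alone gave 0.39, chip 2 alone 0.02, and the arrays without Control 2 gave -0.04. With no background correction the difference was 0.09.

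The promoter of Grm8 is shown because its detected probe varied most of the 8 after background correction. It lies on the minus strand at chr6:28135147-28135396 of GRCm38.p6 and covers the 250 bases before the RefSeq start. It is written 5′ to 3′ along the gene, with a GC box in capitals.
Grm8 promoter: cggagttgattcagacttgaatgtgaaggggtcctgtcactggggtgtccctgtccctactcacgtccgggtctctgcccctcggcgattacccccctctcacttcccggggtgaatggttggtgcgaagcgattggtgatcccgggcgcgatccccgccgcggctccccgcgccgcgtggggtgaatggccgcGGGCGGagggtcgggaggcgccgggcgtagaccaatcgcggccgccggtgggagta
The GC box was searched as GGGCGG and, for the opposite strand, CCGCCC, and 1 match was found. Of 32851 mouse promoter windows of this length, 32.7% held at least 1 match on either strand. The Grm8 window held 29 CpG dinucleotides against a median of 6, and 93.2% of windows held fewer. A match of letters is a description of the sequence and not a measured binding site.

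Across the 8 tested receptor probes, which stand for only 4 genes, the difference was positive for 6 and negative for 2, and their median was 0.14. Control 2, an array high in Ttr, was the lowest array for Grm5 ILMN_1242601, Grm7 ILMN_2684189, Grm4 and Grm8. Without it the differences of these probes were 0.16, 0.16, 0.12 and -0.04. The groups overlapped for all 8 probes, where 0.134% of all probes had groups that do not overlap. Over all kept probes 51.2% had higher values. At an adjusted p under 0.05 limma called 0 of the 8, where it called 0% of the 20172 probes. At an unadjusted p under 0.05 it gave 1 of the 8, against 3.48% of all probes (1.75% higher in EtOH and 1.73% lower). The chip term called 0 of the 8 at an adjusted p under 0.05, against 0.773% of all probes, and gave 1 of the 8 at an unadjusted p under 0.05, against 17.3%. The number of arrays limits the precision, and the distance from a difference to the end of its 95% interval had a median of 0.20 over all kept probes.

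**Figure D2:**
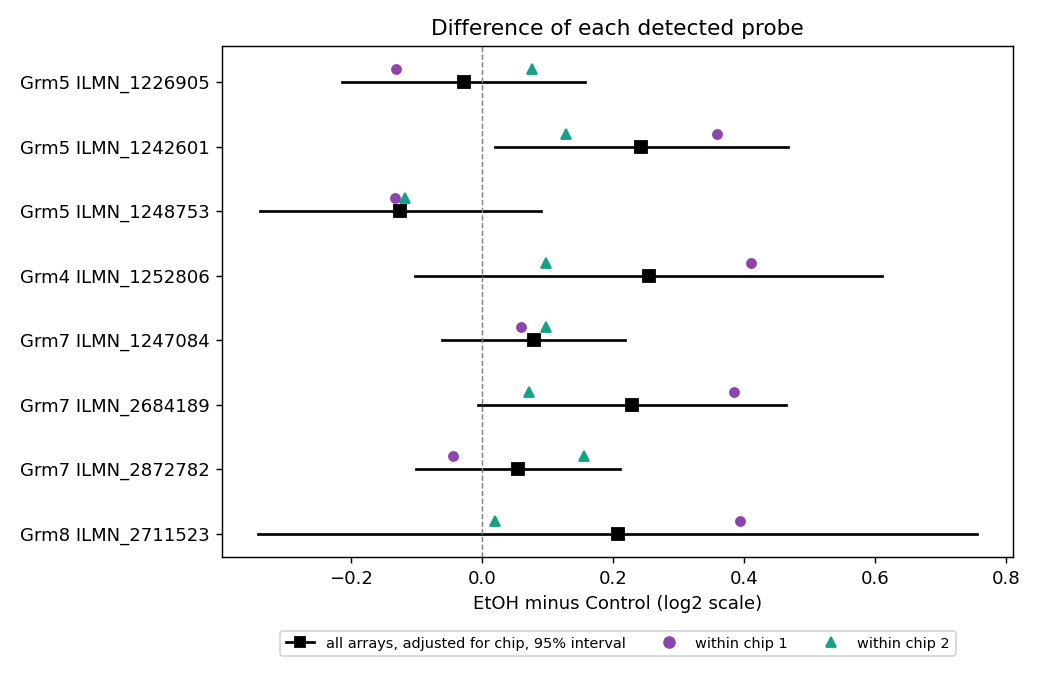
EtOH minus Control difference of each detected receptor probe on the log2 scale, with squares and lines for the value over 12 arrays and its 95% interval, circles for chip 1 and triangles for chip 2. The interval of Grm5 ILMN_1242601 (0.02 to 0.47) is the one that leaves out 0, while that of Grm8 is the widest.

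A further 4 receptor probes stayed below detection. Grm3, a group II receptor gene of neurons and astrocytes, had 1 probe, ILMN_1238513, whose raw intensity was 93 to 128.5 and whose detection p was 0.511 to 0.989. The probes ILMN_3162152 of Grm4, ILMN_2437608 of Grm7 and ILMN_1220385 of Grm8 were likewise detected on 0 of 12 arrays. All 4 were not well above background, so they were not tested and say nothing of a difference between groups. No probe of group II was therefore measured above background.

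Probes of one gene were then compared within each array, as the log2 ratio of their intensities, which asks whether they moved together. For the Grm5 probes ILMN_1242601 and ILMN_1248753 the log2 ratio was 2.23 ± 0.20 in EtOH and 1.94 ± 0.24 in Control (SD, n = 6 each). It ran from 1.92 to 2.46 in EtOH and from 1.69 to 2.24 in Control, and 6 of 6 EtOH arrays exceeded the median of Control. The chip-adjusted difference of the ratio was 0.37, with an exact two-sided permutation p of 0.0222 and 0.133 after Benjamini-Hochberg adjustment over 6 pairs, so it did not pass. It was 0.49 within chip 1, 0.25 within chip 2, 0.39 without the 4 arrays high in Ttr and 0.32 to 0.45 with any 1 array left out. The other 5 pairs had differences of -0.17 to 0.27 and adjusted exact p-values of 0.333 to 0.711.

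Across the 12 arrays the Grm5 probes shared little variation, with Pearson's r of 0.08 for ILMN_1242601 and ILMN_1248753 (Spearman's rho 0.13, permutation p of r 0.803, adjusted over 6 pairs 0.935). The r was -0.16 for ILMN_1242601 and ILMN_1226905 and 0.12 for ILMN_1248753 and ILMN_1226905. The latter was 0.63 without the 2 arrays farthest from the median, 0.61 within chip 1 and -0.85 within chip 2. For Grm7, the probe ILMN_1247084 had r = 0.61 with ILMN_2872782 (rho 0.62, permutation p 0.0368 for r, adjusted 0.119), and 0.57 and 0.64 within the chips. It had r = 0.61 with ILMN_2684189 too (rho 0.52, permutation p 0.0397, adjusted 0.119), but 0.23 without the 2 arrays farthest from the median. ILMN_2872782 and ILMN_2684189 had r = 0.03. No pair passed the adjusted threshold, so a statement on Grm5 or Grm7 as a gene depends on the probe.

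**Figure D3:**
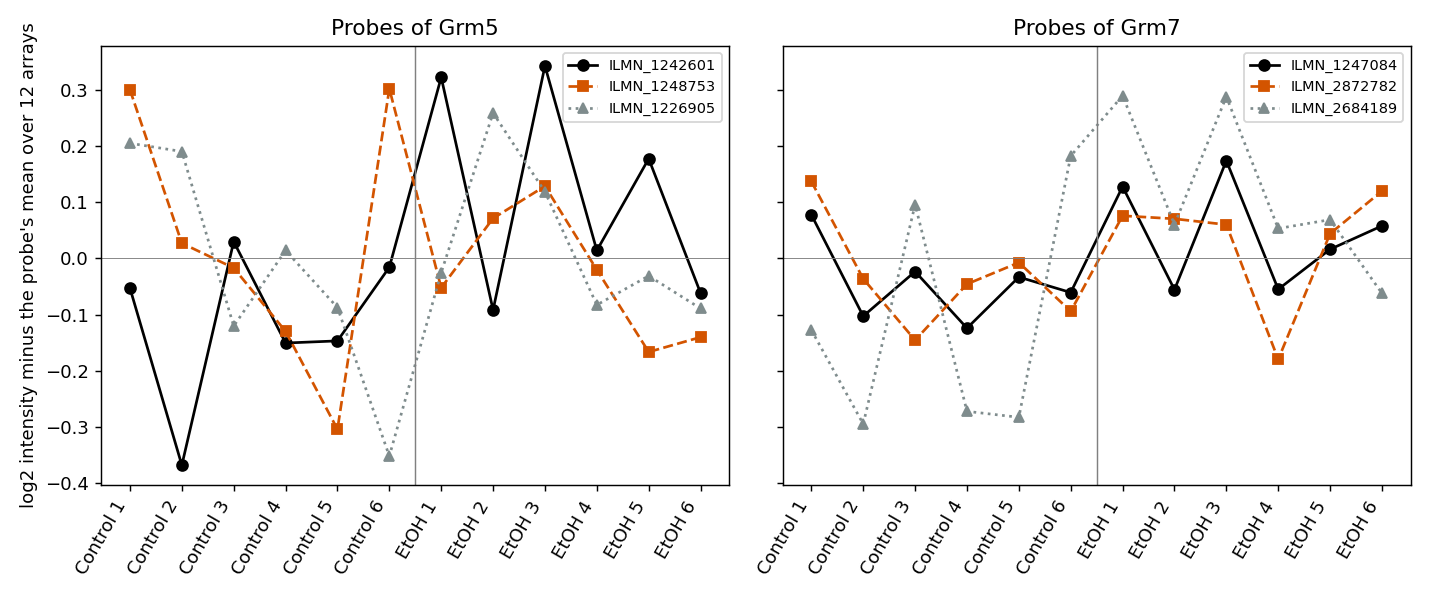
Log2 intensity of each detected probe of Grm5 (left) and Grm7 (right) minus that probe's own mean over 12 arrays, array by array, with lines only to guide the eye. The Grm5 probes take different courses, for example on Control 2 and EtOH 1, and Grm7 ILMN_1247084 and ILMN_2872782 run closer together.

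The receptors were also compared with each other across the 12 arrays, with the groups pooled. This used the brightest detected probe of each, in 6 pairs chosen after the data were seen. The brightest probes of Grm5 and Grm7, ILMN_1242601 and ILMN_1247084, had r = 0.79 (rho 0.73, permutation p 0.00206 and 0.00921, adjusted over the pairs 0.0124 and 0.0276). EtOH 1 and EtOH 3 were the highest arrays for both probes. The r was 0.49 without the 2 arrays farthest from the median, 0.88 within chip 1 and 0.48 within chip 2. Without EtOH 3 it was 0.69 and the call was lost (permutation, adjusted p 0.0519). Without the 4 arrays high in Ttr it was 0.72 (permutation, adjusted p 0.158). Over all 9 combinations of Grm5 and Grm7 probes, 1 other passed, ILMN_1242601 with ILMN_2684189 of Grm7, at r = 0.86 (rho 0.88, permutation p 0.00027 and 0.00048, adjusted over the 9 combinations 0.00243 and 0.00432). Its r was 0.75 without the 2 arrays farthest from the median, 0.95 within chip 1 and 0.75 within chip 2. For both of these probes 6 of 6 EtOH arrays exceeded the Control median. An r within each group was not taken, and the part of the group difference in this r was not tested. The other 7 combinations had r from -0.24 to 0.51 and did not pass, including all 6 with another Grm5 probe.

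The probes of Grm4 and Grm8, both group III, had r = 0.74 (rho 0.78, permutation p 0.00563 and 0.00415, adjusted 0.0169 and 0.0249). Control 2 was the lowest array for both. The r was 0.58 without the 2 arrays farthest from the median, 0.84 within chip 1 and 0.36 within chip 2. Without Control 2 it was 0.65 and the call was lost (permutation, adjusted p 0.0889), and without the 4 arrays high in Ttr it was 0.59 (permutation, adjusted p 0.242). The other 4 pairs had r from 0.27 to 0.44 and did not pass. Among them, Grm4 and Grm7 passed without EtOH 2, at r = 0.78 (permutation, adjusted p 0.016).

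Hippocampal dissections can carry tissue of neighbouring regions, and markers of such tissue and of hippocampal cell types were set beside the receptors. Of 80 relations between the 8 probes and 10 marker lists, 3 passed by r and 4 by rho after adjustment over the 80. Grm8 followed the neocortex list, with r = 0.86 (rho 0.87, permutation p 0.00045 and 0.00048, adjusted 0.0360 and 0.0192). Grm4 followed it as well, with r = 0.83 (rho 0.92, permutation p 0.00103 and 3.0e-05, adjusted 0.0371 and 0.0024). Grm8 had a relation to the mean of the CA1 pyramidal list as well, with r = 0.82 (rho 0.83, permutation p 0.00139 and 0.00151, adjusted 0.0371 and 0.0302). The relation that passed by rho alone was Grm4 with the interneuron list, at rho 0.83 and r = 0.75 (permutation p 0.00138 and 0.00518, adjusted 0.0302 and 0.104). Within the chips its r was 0.91 and 0.65, and without the 2 arrays farthest from the median of the list it was 0.53. Of the 9 detected interneuron genes 6 had a positive r with Grm4, from -0.39 to 0.90 over all 9. The brightest, Sst and Gad1, had -0.03 and 0.23.

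The neocortex list had 5 detected genes, led in brightness by Fezf2, a transcription factor of deep-layer neurons, and Lamp5, a membrane protein of cortical neurons. Its mean ran from 8.82 to 9.54 in EtOH and from 8.75 to 9.22 in Control. All 5 genes had a positive r with Grm8 and with Grm4, from 0.40 to 0.83 for each receptor. Single genes of other lists reached as high. In the thalamus list 6 of 8 genes had a positive r with Grm8, from -0.41 to 0.89, and 7 of 8 with Grm4, from -0.13 to 0.86. Its brightest, Calb2 and Slc17a6, had 0.51 and 0.89 with Grm8. These single-gene r include EtOH 2, which stood apart in the mean of this list and was the highest array for Calb2 and Grm4. Grm8 had r = -0.67 with the dentate granule list and -0.65 with the CA2 and CA3 list, and neither passed (permutation, adjusted p 0.171 and 0.202). The CA1 list had 5 detected genes, led by Fibcd1 and Mpped1, and its mean ran from 11.11 to 11.52 in EtOH and from 11.11 to 11.47 in Control. Its genes did not move as one with Grm8, since 4 of 5 had a positive r, from -0.25 to 0.80, and the brightest, Fibcd1, had the negative one. Mpped1 had 0.80. The list also holds Dcn, which the meninges list shares, and without it r with Grm8 was 0.82 but rho was 0.66 (permutation p 0.0221) and r within chip 2 was 0.69. The part of other tissue in the receptor values was not tested.

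The 3 relations that passed by r kept a positive r in every setting run, but their calls depended on single arrays. Within chips 1 and 2, r was 0.98 and 0.51 for Grm8 with the neocortex list, 0.82 and 0.90 for Grm4 with it, and 0.95 and 0.88 for Grm8 with the CA1 list. Without the 2 arrays farthest from the median of the list, r was 0.77, 0.85 and 0.92. With 1 array left out the calls by r were lost in 5, 7 and 9 of 12 cases, and the calls by rho in 5, 0 and 7, and in 7 for Grm4 with the interneuron list. Without EtOH 4, Control 2, Control 3 or Control 5, 0 of 80 relations passed by r, and the same held without the 4 arrays high in Ttr, where r was 0.92, 0.75 and 0.84. None of the 4 relations passed by rho without the arrays high in Ttr.

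**Figure D4:**
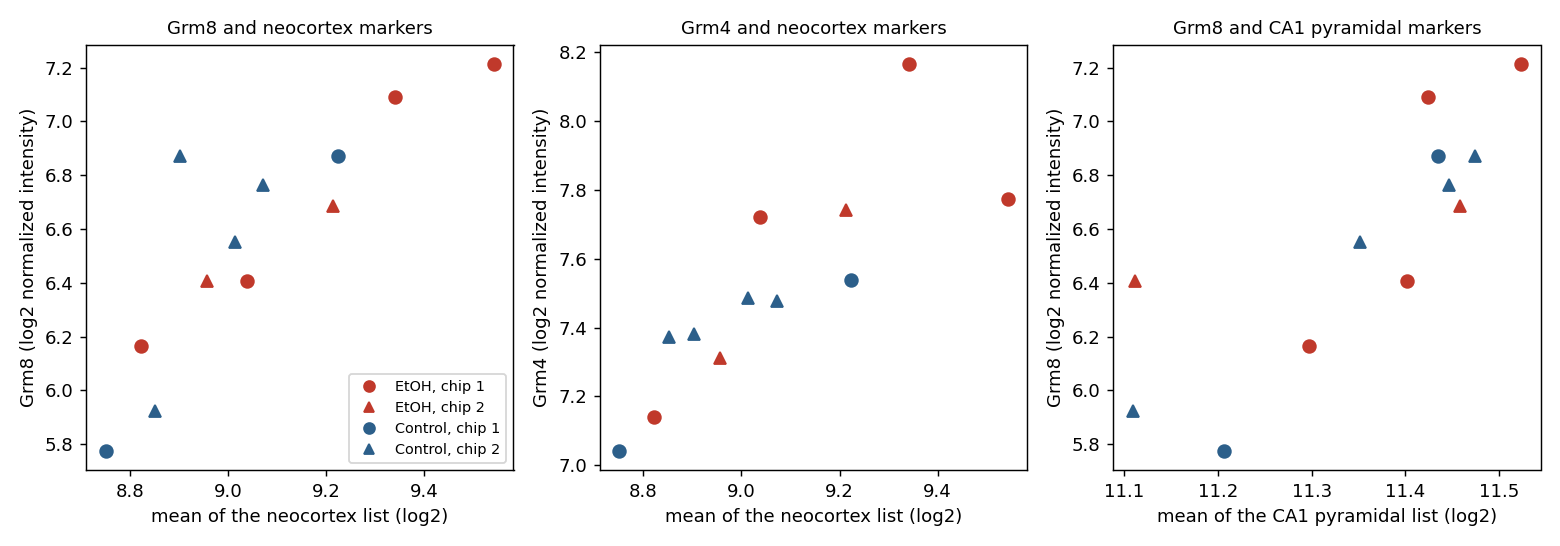
Log2 intensity of Grm8 (left, right) and Grm4 (middle) against the mean log2 level of the neocortex list (left, middle) or the CA1 pyramidal list (right), 1 point per array, coloured by group, with circles for chip 1 and triangles for chip 2. Control 2, at 5.78 for Grm8 and 7.04 for Grm4, is the lowest point in each panel.

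In the choroid plexus list the 4 arrays high in Ttr stood apart, and in the thalamus list EtOH 2 alone did, at 9.44. The gaps were 0.56 and 0.53 of the range, above the 0.5 set as the limit. The means of these lists were therefore set beside the receptors within the remaining arrays only, as 16 further relations. Over the 8 arrays low in Ttr, Grm7 ILMN_2684189 had r = -0.89 with the choroid plexus list (permutation p 0.00258, adjusted over the 16 relations 0.0413). Its rho was -0.83 (permutation p 0.0160, not adjusted), and r was -0.69 without the 2 arrays farthest from the median. Control 5 had the highest list mean of these 8 arrays, at 7.52, with Control 1 next at 7.05. The other Grm7 probes did not share this relation, with r = -0.22 for ILMN_1247084 and 0.31 for ILMN_2872782 over the same arrays. Over the 11 arrays without EtOH 2, Grm8 had r = 0.68 with the thalamus list (permutation, adjusted p 0.162) and Grm4 had 0.55 (permutation, adjusted p 0.328).

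The genes most like each receptor were ranked by r over the 12 arrays after group and chip were removed, using the brightest probe. For Grm5 they were Sh3yl1 (0.93), Cpsf6 (0.90) and Plppr1 (0.90), while its own other probes ranked 5208 and 16775. For Grm7 they were St8sia5 (0.97), Twnk (0.96) and Rpain (0.96), and its own other probes ranked 2023 and 3209. For Grm4 they were Ly6g6e (0.98), Asl (0.94) and Chmp7 (0.93), and for Grm8 Rcan2 (0.95), Cox6a2 (0.94) and Cdh13 (0.94). These are the highest values among the named genes of 20172 probes over only 12 arrays, and they are given as a description.

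Genes that act with the receptors were read from the same fit, 1 probe per gene, and 0 genes of any of the 6 lists passed, where 0% of all probes did. The list sizes below also count genes with no probe of that name. Of the group I partners, Gq signalling had 9 detected genes of 14 listed, 5 higher and 4 lower, with a median difference of 0.00017, which was -0.0017 in the authors' normalized table and -0.0016 with no background correction. Prkcb and Prkca, which encode protein kinase C forms downstream of Gq, had 0.08 and -0.09, the latter with its other probe at 0.19. The postsynaptic scaffold had 8 of 12, 7 higher and 1 lower, with a median of 0.03. Without the 4 arrays high in Ttr 3 of the 8 scaffold genes were higher and the median was -0.0062, and with no chip term 5 were higher. Homer1, whose product ties the receptor to the scaffold, had 0.11 (-0.03 to 0.26), with 1 of 3 other probes opposite, and Homer2 had 0.09.

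Genes of receptor-driven plasticity and translation had 10 of 14 detected, 6 higher and 4 lower, with a median of 0.02, and the remaining listed genes had no probe. Arc, an immediate early gene whose product promotes AMPA receptor removal, was the one gene of the 6 lists at an unadjusted limma p under 0.05. The other lists gave 0 of their 9, 8, 17, 11 and 12 detected genes, and the share over all genes with a kept probe was 3.03%. Arc had a difference of 0.34 (0.06 to 0.61, unadjusted p 0.0211, adjusted limma p 1.00), and 4 of 6 EtOH arrays above the Control median. Mtor, the growth kinase, had 0.10.

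On the side of groups II and III, Gi/o signalling had 17 of 19 genes detected, 10 higher and 7 lower, with a median of 0.0062. Kcnj3, a potassium channel subunit opened by Gi/o proteins, had 0.15 (-0.07 to 0.38) and the adenylyl cyclase gene Adcy8 had 0.21 (-0.13 to 0.56). Presynaptic partners of group III had 11 of 13, 3 higher and 8 lower, with a median of -0.03 that turned to 0.03 under median scaling of the arrays. Syn1, which tethers synaptic vesicles, had 0.12 (-0.02 to 0.26) in 6 of 6 EtOH arrays above the Control median, with its other probe at -0.03. Cacna1a, the P/Q-type calcium channel gene, had -0.16 (-0.38 to 0.06).

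Genes of receptor desensitisation and RGS proteins had 12 detected of 14 names listed, 7 higher and 5 lower, with a median of 0.02. The remaining names, Grk2 and Adrbk1, had no probe and stand for the same gene. The receptor kinase genes Grk4 and Grk5 had -0.26 (-0.52 to 0.01) and 0.33 (-0.06 to 0.73), both at levels near 6 on the log2 scale. Over all 10936 genes with a kept probe, the median was 0.0043, 52.2% had higher values and 3.03% had an unadjusted p under 0.05. Under median scaling the median of all kept probes moved from 0.0025 to 0.055, and the list medians moved with it. Higher values then numbered 8 of 9 for Gq signalling, 7 of 8 for the scaffold, 9 of 10 for plasticity, 16 of 17 for Gi/o signalling, 8 of 11 for presynaptic partners and 8 of 12 for desensitisation.

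**Figure D5:**
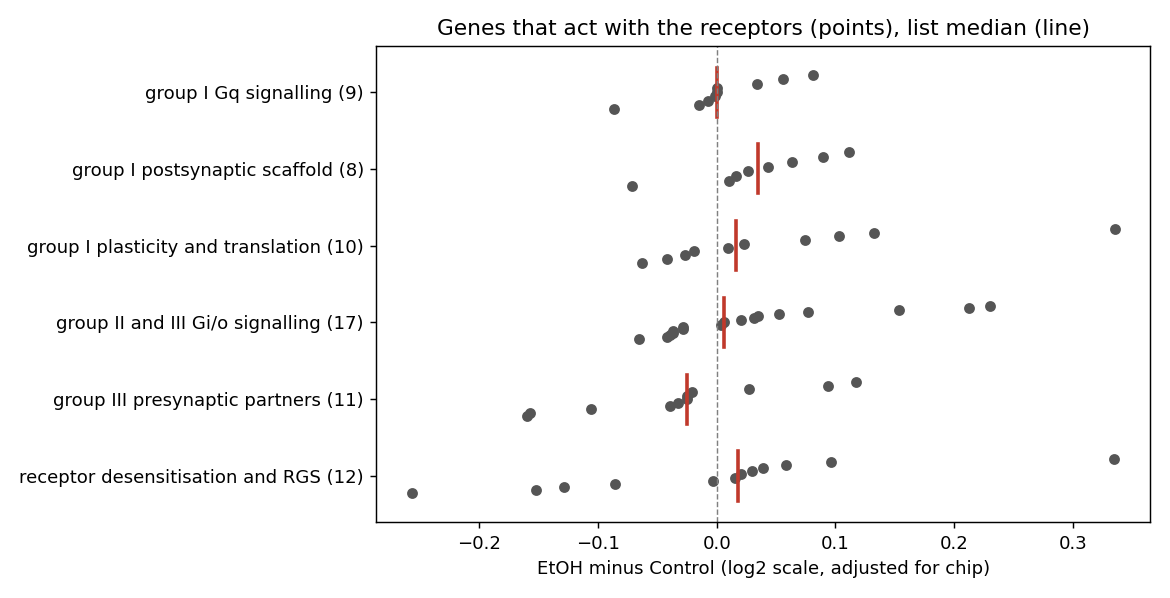
EtOH minus Control difference (log2, adjusted for chip) for each detected gene (points) of 6 lists of genes that act with the receptors, with the number of genes in parentheses and the list median as a line. The medians lie between -0.03 and 0.03, with Arc at 0.34 and Grk5 at 0.33 as the highest points.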

How the data were processed

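Per the file headers, the deposited table holds raw intensity on a linear scale for each probe and array, with a detection p-value from the authors' software beside it. The submitters' processing notes list GenomeStudio 1.9.0. Another deposited intensity table had nearly equal medians (135.6 to 135.7) and served as an alternative.

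The neqc function of limma 3.58.1 (R 4.3.3) corrected the background, with an offset of 16, and then quantile-normalized the log2 values. Groups were compared with two-sided limma tests with chip as fixed term and Benjamini-Hochberg adjustment over 20172 kept probes at 0.05. Single probes were also tested by exact permutation within chips (225 assignments), and correlations across arrays with 100000 permutations that pooled groups and chips. Gene names come from the platform annotation (34885 probes with 1 gene, 18 with several, 10378 with none). The promoter sequence is from RefSeq (GRCm38.p6), whose table held 4 of the 6 genes. A build for the probes is not given in the sources used here.

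The members, pathway lists and marker lists were chosen with earlier results of these data known. Named genes were all probes of the members, the 2 genes with the smallest p of each pathway list, the 3 genes most like each member and the 2 brightest genes of each marker list used. In simulated data for EtOH against Control (200 of 20172 probes changed) the fit recovered 0.2% of changes of 0.25, 62.5% of changes of 0.5 and 96% of changes of 1. Calls among the unchanged probes averaged 0, 8.6 and 13.2. The noise was drawn independently for each probe and array, so it lacked the variation that probes share on an array. Alternatives changed the normalization, the background correction, the filter, the chip term, array weights and the arrays used.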

Additional observations from a re-analysis of the deposited data

Results flagged for a closer look

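Of 28 sets of 6 arrays examined for the receptor probes and their ratios, 3 held an array far from the others, and chance flags about 1 in 20. The ratio given is the gap to the nearest array over the range of the group. Control 2 had the lowest Grm4 ILMN_1252806, at 7.04 against 7.37 for the nearest Control array (ratio 0.6661). EtOH 4 had the lowest Grm7 ILMN_2872782, at 7.30 against 7.53 (ratio 0.7471). Control 6 had the highest log2 ratio of the Grm5 probes ILMN_1248753 and ILMN_1226905, at 3.09 against 2.54 (ratio 0.6323). Control 2 and EtOH 4 are among the 4 arrays high in Ttr, and their part in these values was not tested.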

How the results depend on the processing

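The alternatives without the 4 arrays high in Ttr, those for lists and gene pairs and the leaving out of arrays for correlations were chosen after seeing the data. Probes called stayed at 0 for all probes and for the receptors in every setting run, with 0.0709 (without Control 2) as the smallest adjusted p. The 702 probes at an unadjusted p under 0.05 became 1913 with no filter and 458 where all arrays had to reach a detection p under 0.01, where more and fewer probes were tested, and 604 to 919 with 1 array left out. Median scaling gave 408 higher and 162 lower, against 354 and 348. Receptor probes at that p (1) numbered 2 with no chip term, with the chip as a random block, under median scaling and with the stricter filter. They numbered 0 within chip 2 and without the arrays high in Ttr, and 0 to 2 with 1 array left out. For these shifts and those that follow the cause was not tested.

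Signs turned in these values, beside those of list medians, which stand with the lists in the report. Grm5 ILMN_1226905 (-0.03) was 0.050 with no chip term, 0.0300 with the chip as a random block, 0.0764 within chip 2, 0.0040 under median scaling, 0.0248 without the arrays high in Ttr and -0.0666 to 0.0021 with 1 array left out. Grm7 ILMN_2872782 was -0.0438 within chip 1, and Grm8 was -0.0449 to 0.37 with 1 array left out. Within chip 2 the difference between probes of Grm7 was -0.0579 for ILMN_1247084 minus ILMN_2872782, 0.0249 for ILMN_1247084 minus ILMN_2684189 and 0.0828 for ILMN_2872782 minus ILMN_2684189. Without the arrays high in Ttr the first was -0.0059, r was 0.30 for Grm5 ILMN_1242601 with ILMN_1226905 and -0.16 for Grm7 ILMN_2872782 with ILMN_2684189. The r of Grm5 with Grm8 was -0.0605 to 0.40 with 1 array left out. The r of Grm5 with Grm7 was -0.243 for ILMN_1226905 with ILMN_2684189.

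With 1 array left out, r with the neocortex list was 0.83 to 0.95 for Grm8 and 0.79 to 0.90 for Grm4, and r of Grm8 with the CA1 list was 0.76 to 0.91. Without the arrays high in Ttr these were 0.92, 0.75 and 0.84, and none passed. Replicate numbers are shared between groups, but the correlations of same-numbered arrays' deviations ran from -0.13 to 0.24 and were not above 0.1 for every pair, so the numbers were not taken to pair the arrays. With the replicate block 0 probes were called and 917 had an unadjusted p under 0.05. Under it Grm5 ILMN_1226905 was 0.0394, Grm4 was 0.36 against 0.25 and Grm8 was 0.36 against 0.21.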
